A study of Nannochloropsis oceanica strain IMET1 with 6 samples.

Results

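The 100 genes described here are those whose messenger RNA level varied least across 6 libraries of the marine alga Nannochloropsis oceanica strain IMET1, among genes with at least a moderate level. They were chosen from the measured values: of 9552 genes, 3130 had a mean of at least 1000 normalised reads over the 6 libraries, and the 100 of these with the lowest coefficient of variation (CV, the standard deviation over the mean) were kept as candidate reference transcripts. The low spread and the small difference between strains are therefore part of how the genes were chosen, and are given as descriptions without a test. A normalised read count is the number of reads assigned to a gene divided by a factor for each library, set by the authors so that libraries of unequal depth can be compared.

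The 2 groups were the mutant HLM23, a single insertional line with the genotype NO06G03670-, with 3 libraries, and a wild type control (WT), also with 3. Both were grown in artificial sea water with added nutrients in 25 ml shake-flask cultures from an optical density of 0.1, at 25 °C, 0.2% CO2, a light intensity of 600 μmol photons per m2 per s and a cycle of 16 h of light and 8 h of dark, and were sampled on day 3, 1 h before the dark phase. The deposited values imply 15331673 to 18711316 reads per library. For every sample 22 ml of a 25 ml culture was harvested, but the labels do not state that each replicate was a culture of its own. The spread between replicates may therefore be technical. The replicate 2 libraries of the strains lay closest to each other: their Spearman correlation over all genes was 0.977, and other pairs between the strains gave 0.907 to 0.953. Pairs within HLM23 gave 0.970 to 0.988 and pairs within the WT 0.983 to 0.985. HLM23 replicate 2 was thus closer to WT replicate 2 than to HLM23 replicate 3 (0.974). The disrupted gene NO06G03670 stood at 1073, 982 and 777 normalised reads in HLM23 and at 2164, 1664 and 1682 in the WT.

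A reference transcript is one whose level is taken as constant, so that the level of another gene can be expressed relative to it. In quantitative PCR this corrects for unequal amounts of input RNA and unequal yield of cDNA, and in sequencing a set of such transcripts can serve the same purpose for depth. Genes for actin, tubulin, translation elongation factors, ubiquitin or ribosomal proteins are commonly taken for this role, and a reference is useful when it is steady in the conditions compared and has a level near that of the genes measured. The table pairs no gene ID with a description, and none of its IDs matched the 160 organelle genes of the RefSeq table used for names, so it is not known here which proteins the 100 genes code for.

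The members spanned CVs from 2.67% to 6.33%, with a median of 5.33%, whereas the other 3030 genes with a mean of at least 1000 had a median of 20.1%. Of the members, 7 had a CV under 3%, 17 under 4%, 39 under 5% and 82 under 6%. The largest of a member's 6 values exceeded the smallest by a factor of 1.07 to 1.21, with a median of 1.15. The same factor had a median of 1.73 among the other genes at this level. The cutoff fell in a dense part of the distribution. The last members inside it were NO01G01350 at a CV of 6.25% and NO03G04290 at 6.33%, and the first genes outside were NO02G06190 at 6.34% and NO01G04810 at 6.35%. No gap thus separated members from the genes that follow them, and 369 of the 3130 genes had a CV under 10%.

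The steadiest gene was NO05G05360, which lies on chromosome 5 (minus strand, 1434998 to 1439666). Coordinates are those of the authors' table, and their genome build is not given here. It was measured at 3624, 3540 and 3823 normalised reads in HLM23 replicates 1, 2 and 3 and at 3675, 3751 and 3685 in the WT, which is 3662 ± 145 against 3704 ± 41.2 (SD, n = 3) and a CV of 2.67% over all 6. The WT values lay inside the range of the HLM23 values.

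NO17G01360 (chromosome 17, plus strand, 416749 to 421111) followed with 1133, 1144 and 1211 in HLM23 and 1161, 1188 and 1200 in the WT, a CV of 2.70%. Its strains overlapped, with the highest and the lowest value both in HLM23. NO10G04080 (chromosome 10, plus strand, 1228757 to 1232451) gave 1047, 1046 and 1050 in HLM23 and 1018, 1006 and 981 in the WT, a CV of 2.71%. With the authors' factors all HLM23 values lay above all WT values, at a log2 fold change (HLM23 over WT) of 0.06. With each library set to the same total the direction turned, to -0.05, and the strains overlapped.

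NO01G02690 (chromosome 1, plus strand, 694071 to 698139) showed the same pattern at a higher level, with 2262, 2165 and 2212 in HLM23 and 2124, 2107 and 2127 in the WT, a CV of 2.78%. The strains did not overlap with the authors' factors (log2 fold change 0.06), and with equal library totals the direction again turned (-0.05) and they overlapped. Both remaining genes of the 6 steadiest lie on chromosome 10, as NO10G04080 does. NO10G00640 (minus strand, 214736 to 217805) was measured at 1152, 1217 and 1197 in HLM23 and at 1215, 1136 and 1198 in the WT, a CV of 2.83%. NO10G03670 (plus strand, 1058126 to 1063362) was measured at 1134, 1108 and 1158 in HLM23 and at 1082, 1172 and 1124 in the WT, a CV of 2.88%. In both genes the WT held the lowest value. The strain means differed by less than 1% with the authors' factors, whereas the log2 fold change was -0.10 in both with equal library totals.

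**Figure D1:**
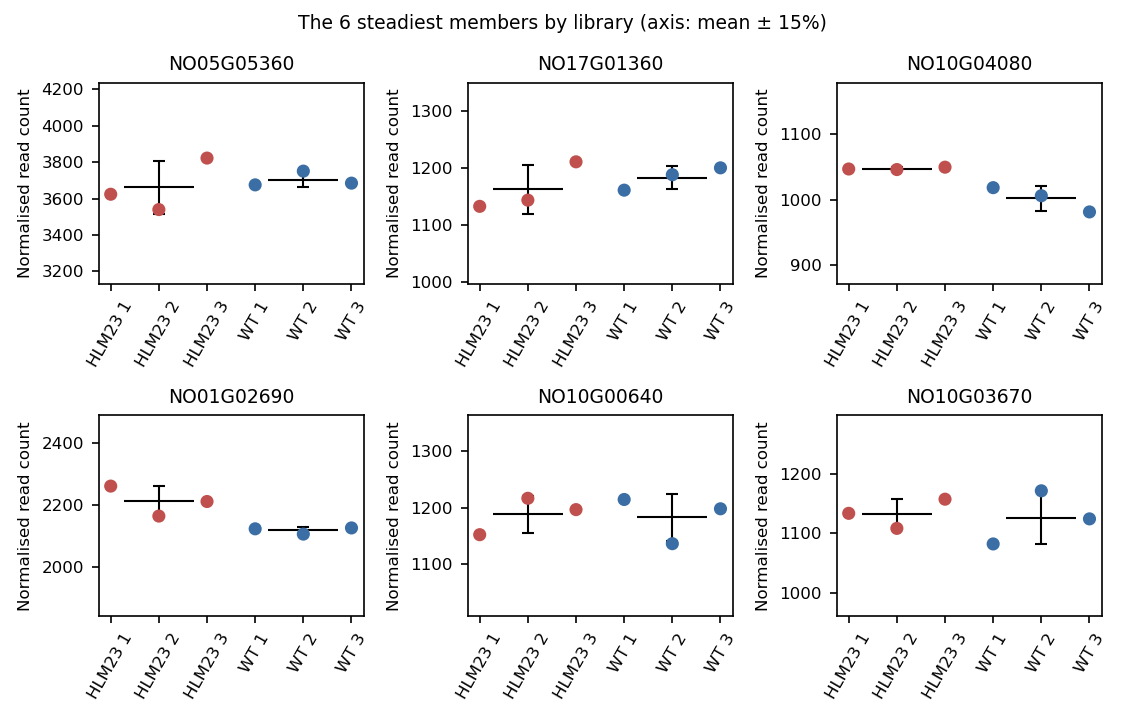
Normalised read count (vertical axis, spanning each gene's mean ± 15%) of the 6 steadiest members in each library (points, HLM23 in red and WT in blue), with the strain mean and SD (n = 3) as bars. The strains overlap in NO05G05360, NO17G01360, NO10G00640 and NO10G03670, whereas NO10G04080 and NO01G02690 are higher in all 3 HLM23 libraries with the authors' factors used here, a direction that turned with equal library totals (log2 fold change -0.05 in both).

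Part of any CV comes from the counting of reads. For each gene the CV that counting alone would give was computed from the number of reads behind its values, and it was 3.14% at most and 0.751% at least among members. In 4 members, all among the 6 steadiest (NO17G01360, NO10G04080, NO10G00640 and NO10G03670), the observed CV was below this value: in NO10G04080 it was 2.71% against 3.12% from counting. These 4 have means between 1025 and 1186, close to the floor of 1000, and their rank against each other cannot be resolved at this depth. The CVs of all 6 steadiest lay between 2.67% and 2.88%, each estimated from only 6 values. Their order is therefore not taken as resolved at any level. The observed CV was under 2 times the counting CV in 31 members and in 0 of the other 3030 genes, and under 3 times in 70 members and in 58 of the others. The median ratio was 2.41 in members and 9.23 in the other genes. These contrasts largely follow from the rule, which chose members by the observed CV. Every other gene had a CV of at least 6.34%, while its counting CV was 3.18% at most. Reads that are PCR copies of 1 molecule are not independent, so the counting CV is a lower bound on technical spread.

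**Figure D2:**
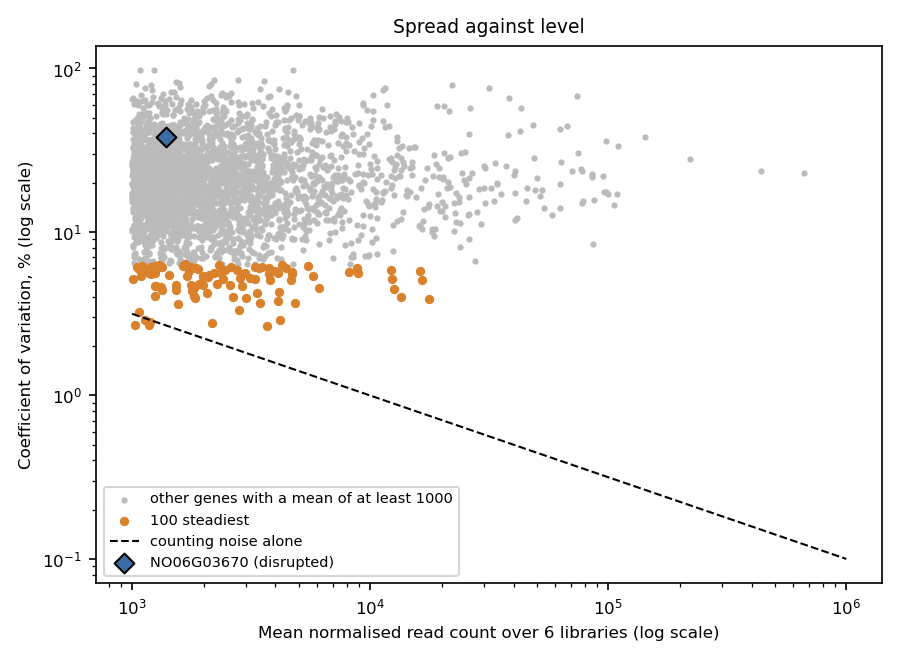
CV over the 6 libraries (vertical axis, %, log scale) against the mean normalised read count (horizontal axis, log scale) for the 3130 genes with a mean of at least 1000, with the 100 steadiest in orange, the disrupted gene NO06G03670 as a diamond (CV 38.1%) and counting noise as a dashed line. The members form the lower edge of the cloud up to a mean of 17637, and only at means near 1000 do they reach the line.

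The members covered levels from 1006 to 17637 normalised reads, with a median of 2185. There were 46 members with a mean under 2000, 47 between 2000 and 10000 and 7 of at least 10000, and none was among the 100 genes with the highest WT means. The most abundant was NO10G00250, a short gene of 774 bases on chromosome 10 (minus strand, 87548 to 89563). Its normalised read count was 18756, 17178 and 17379 in HLM23 and 18018, 16804 and 17685 in the WT, with a CV of 3.90%. The counting CV of this gene was 0.751%, so its spread was measured far above counting noise. The highest value of either strain was in replicate 1 and the lowest in replicate 2, and the strains overlapped.

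NO20G02230 (chromosome 20, minus strand, 670702 to 679280) was next, at 15927, 17153 and 16773 in HLM23 and 17807, 16365 and 15478 in the WT, a CV of 5.09%. NO28G00930 (chromosome 28, plus strand, 303733 to 305776) was measured at 16777, 14383 and 16864 in HLM23 and at 16452, 15788 and 16458 in the WT, a CV of 5.78%. In this gene the replicate 2 library was the lowest of each strain, and the other 4 libraries lay within a narrow range. Per kilobase of gene length, which allows genes to be compared, NO10G00250 had 22787 normalised reads, NO28G00930 11614 and NO20G02230 4287. Members had a median of 822 normalised reads per kilobase and the other genes with a mean of at least 1000 had 914, so the members were not concentrated among the genes with the densest coverage.

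No member was called different between the strains, which follows in part from the choice and is printed for completeness. In limma on log2(value + 1) over all genes, 28.9% of 9452 tested genes passed an adjusted p of 0.05, and 0 of the 100 members did. At an unadjusted p of 0.05 the count was also 0, and neither threshold was passed by any member in the authors' deposited table. Member log2 fold changes ran from -0.13 to 0.12, each with a standard error of 0.13 to 0.15, so a difference of that size could not be told from 0 by this fit. The HLM23 mean was 91.5% to 109% of the WT mean. It was above the WT mean in 52 members and below it in 48, and 67 members had strain means within 5% of each other.

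With the authors' factors, small differences between the strains remained within the set. In 12 members the values of the strains did not overlap, with 7 higher and 5 lower in HLM23, beside 46.9% of all tested genes, and nothing is read from this share because the rule used the same values. With equal library totals 23 members did not overlap, all lower in HLM23. That scaling also moved the median log2 fold change of all tested genes to -0.11. The share of all genes without overlap was not computed for it, so nothing is read from this count either. The member with the highest fitted HLM23 level relative to the WT was NO06G04380 (chromosome 6, plus strand, 1228281 to 1229928), at 1221, 1186 and 1275 in HLM23 and 1180, 1103 and 1107 in the WT. Every HLM23 value exceeded every WT value, the closest being 1186 and 1180, but with equal library totals the strains overlapped and the log2 fold change was 0.0085 in place of 0.12. NO13G02330 (chromosome 13, minus strand, 645809 to 647862) came next, at 1852, 1785 and 1861 in HLM23 and 1613, 1643 and 1818 in the WT, where WT replicate 3 lay inside the HLM23 range.

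On the lower side, NO04G02030 (chromosome 4, minus strand, 588231 to 591193) was measured at 3397, 3354 and 3316 in HLM23 and at 3812, 3755 and 3442 in the WT. The strains did not overlap, and the HLM23 mean was 91.5% of the WT mean. With equal library totals the strains of this gene overlapped, at a log2 fold change of -0.24. NO07G01650 (chromosome 7, plus strand, 501884 to 503397) was measured at 2752, 2873 and 2945 in HLM23 and at 3231, 3021 and 3081 in the WT, again without overlap and with an HLM23 mean of 91.8% of the WT mean. With equal library totals its strains still did not overlap, at a log2 fold change of -0.23.

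Since the members were chosen for a low CV over the same 6 libraries, the rule itself keeps each library near the others, and the values that follow are descriptive. The median member was at 99.4% of its own mean in WT replicate 2, the lowest library, and at 101% in WT replicate 3, the highest. In each library the central members (5% to 95%) lay between 90.8% and 108% of their means. HLM23 replicate 3 held the highest value in 23 members, more than any other library, and WT replicate 2 the lowest in 21. Among the other genes with a mean of at least 1000 the replicate 2 libraries had a narrower range than the rest (73.2% to 123% in HLM23 and 74.7% to 117% in the WT, against 55.0% to 149% in HLM23 replicate 1). Together the members took 2.02% ± 0.15 of all normalised reads in the mutant and 2.18% ± 0.089 in the wild type (SD, n = 3).

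**Figure D3:**
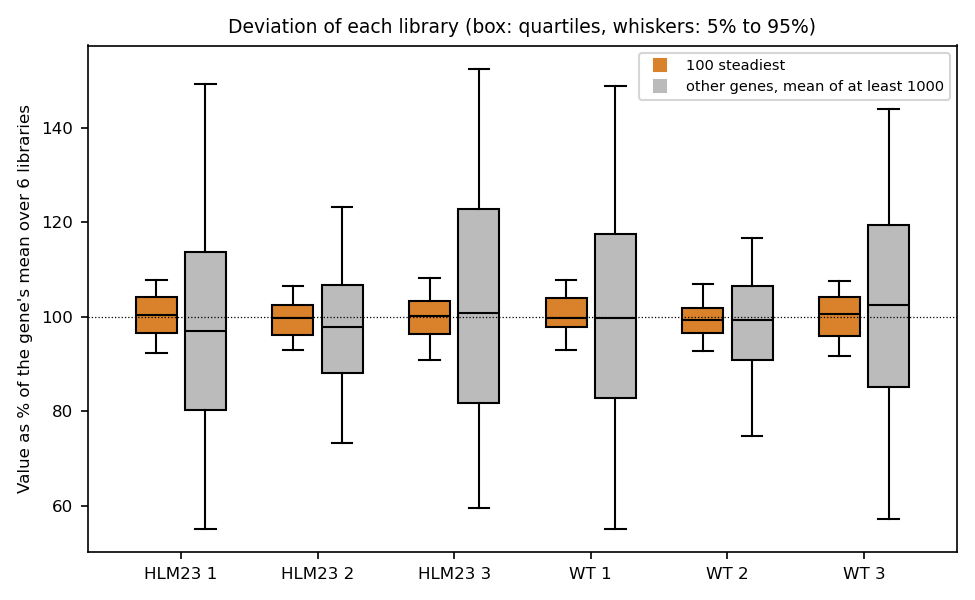
Value of each gene as a percentage of its own mean over the 6 libraries (vertical axis), by library, for the 100 steadiest genes (orange) and the other 3030 genes with a mean of at least 1000 (grey). Boxes show quartiles and whiskers 5% to 95%: the members lie between 90.8% and 108% in all libraries, and the grey whiskers are shortest in the replicate 2 libraries.

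Which genes were kept depended on the scaling of the libraries. With each library set to the same total in place of the authors' factors, 25 of the 100 members remained among the 100 steadiest, and the median CV of the members was 8.40% in place of 5.33%. The rank of the median member moved from 50 to 228 of 3141, and the lowest rank of any member was 612. The CV of the deposited FPKM (a read count corrected for gene length and library total) kept the same number. The library that differs most between the scalings is HLM23 replicate 3, whose sum of normalised reads was 1.14 times the mean of the 6 libraries. Under equal totals the median log2 fold change was -0.11 over all tested genes and -0.11 over the members, 93 of which were then below 0 and 7 above, whereas with the authors' factors it was -0.0022 and 0.00082.

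The ratio of a pair of genes does not depend on the scaling, since the factor of a library cancels. Over the 4950 pairs of members the SD of the log2 ratio had a median of 0.10, a lowest value of 0.011 and a highest of 0.18. A member's mean SD of the log2 ratio to the other members ran from 0.081 in NO01G02690 to 0.12 in NO03G04290. The other genes with a mean of at least 1000 had a median of 0.30 when set against the members in the same way, with a lowest value of 0.11, so the most constant of them reached the range of the members. This measure was computed from the values that chose the members and is a description of them.

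The steadiest pair was NO02G04110 (chromosome 2, plus strand, 1120051 to 1124775) with NO20G00310 (chromosome 20, plus strand, 105596 to 109113). NO02G04110 was measured at 8522, 8761 and 8639 normalised reads in HLM23 and at 9471, 9481 and 8159 in the WT. NO20G00310 was measured at 4045, 4202 and 4124 in HLM23 and at 4574, 4560 and 3952 in the WT. Both were highest in WT replicates 1 and 2 and lowest in WT replicate 3, and their ratio was 2.11, 2.09 and 2.10 in HLM23 and 2.07, 2.08 and 2.06 in the WT. The CV of the ratio, 0.745%, was below the 1.86% that counting alone would give, and the pair was picked as the lowest of 4950. The genes lie on different chromosomes and each had a CV above 6%, and the ratio thus varied less than either gene alone.

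To see how far steadiness in some libraries held in libraries not used for the choice, the rule was applied to 1 strain and read in the other. The 100 genes with the lowest CV in the WT had a median CV of 1.71% in the 3 WT libraries and of 10.9% in the 3 HLM23 libraries, where all 3123 genes with a WT mean of at least 1000 had a median of 15.1%. Of the 100, 64 lay under that median in HLM23, and 13 were members of the set described here. Chosen in HLM23 and read in the WT, the genes had a median CV of 9.01% against 11.4% for all, and 67 lay under the median. These readings kept the authors' factors, which may have been set over all 6 libraries together. With equal library totals, 66 of 100 genes chosen in the WT lay under the HLM23 median. Their median CV in HLM23 was then 12.1%, against 15.7% for all. Genes steady in 1 strain thus had a lower median spread in the other than all genes at that level, yet one several times larger than in the libraries that chose them.

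The rule was also applied to 5 libraries and read in the library left out. The chosen genes then differed from their mean over the 5 by a median of 5.24% in HLM23 replicate 2 and 5.23% in WT replicate 2. The median difference was 7.93% in HLM23 replicate 1, 8.32% in WT replicate 1, 8.48% in WT replicate 3 and 14.4% in HLM23 replicate 3. All genes with a mean of at least 1000 differed by medians of 8.99% to 23.4% in the same libraries, in each case more than the chosen genes. In HLM23 replicate 3, 65 of the 100 chosen genes lay over 10% from their mean in the other libraries, against 18 in HLM23 replicate 2. The replicate 2 libraries, with the smallest differences, are also those that lay closest to each other across the strains, and the part of this in the result was not tested.

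Membership was counted over all settings tried. Of 19 other settings of the rule, among them other measures of spread, other floors, 1 strain alone and each library left out, only NO01G02690 was kept in all 19. This count is in part fixed by the settings: a floor of 2000 leaves out all 46 members with a lower mean, and the FPKM setting kept as many members as equal totals, by the same kind of scaling. Over the other 17 settings, NO10G04080 and NO01G02690 were kept in all. NO05G05360 and NO10G04080 were kept in 18, as were NO14G02280 and NO05G03850, both named after their values were seen. NO14G02280 (chromosome 14, minus strand, 686246 to 687838) is an abundant gene, at 14346, 12784 and 13883 normalised reads in HLM23 and 13256, 13466 and 13410 in the WT. NO05G03850 (chromosome 5, plus strand, 1000331 to 1003071) was measured at 2000.4, 1973 and 2216 in HLM23 and at 2079, 2027 and 2103 in the WT. In both genes the strains overlapped. At least 15 settings kept 25 members and at least 10 settings kept 72, while the members kept least often were kept in 4.

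**Figure D4:**
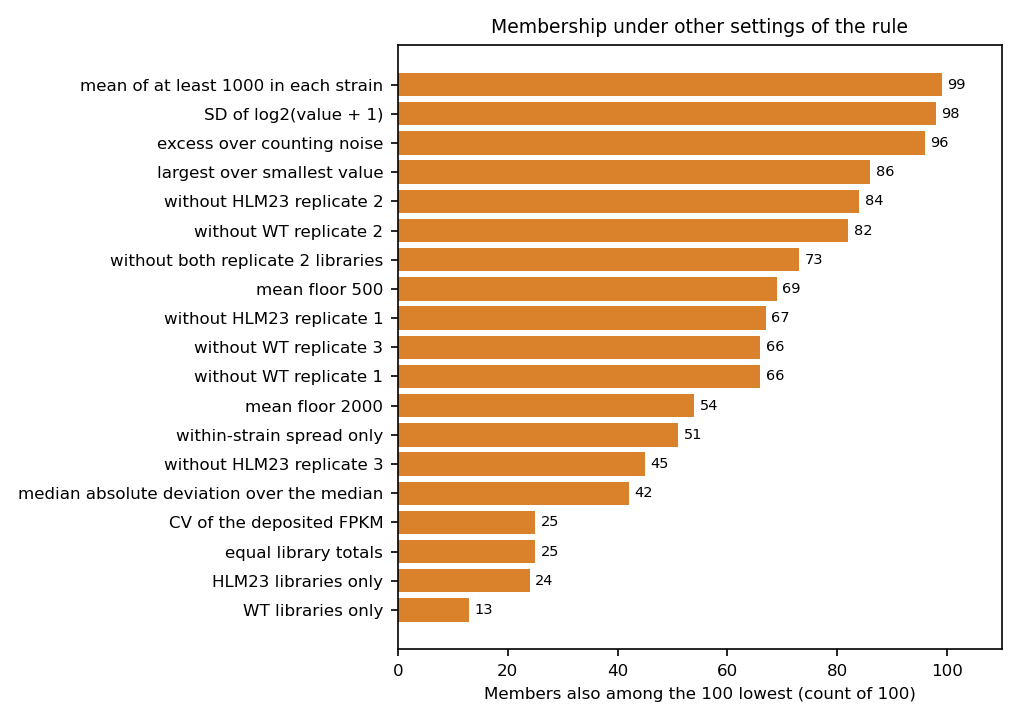
Number of the 100 members that remained among the 100 steadiest genes (horizontal axis) under each of 19 other settings of the rule (vertical axis). The number was 96 to 99 with the SD of log2 values, with counting noise subtracted or with the floor applied to each strain, 45 without HLM23 replicate 3, 25 with equal library totals and 13 with the WT libraries alone.

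Gene length and structure were not used by the rule, although a floor on reads favours long genes. The members had a median length of 2775 bases and the other genes with a mean of at least 1000 had one of 2184. Divided by length into 5 groups of 626, from the shortest to the longest, the 3130 genes held 11, 15, 19, 31 and 24 members. The median CV of the genes in these groups was 21.3%, 19.6%, 19.7%, 17.3% and 20.2%, so it did not fall steadily with length. The shortest member was NO02G01940 with 642 bases (chromosome 2, plus strand, 555834 to 557584), at 7681, 7536 and 8689 normalised reads in HLM23 and 8513, 8315 and 8357 in the WT. The longest was NO01G01350 with 8916 bases and no difference between length and span (chromosome 1, plus strand, 342415 to 351330), at 1261, 1421 and 1194 in HLM23 and 1293, 1369 and 1273 in the WT. In both genes the strains overlapped.

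The part of a gene's span not counted in its length, which stands for introns as far as the table shows them, had a median of 562 bases in members and 404 in the other genes. By this quantity 5 such groups held 16, 22, 10, 22 and 30 members, so the counts did not rise steadily. No such sequence was present in 13 members (13.0%), in 16.5% of the other genes at this level and in 28.5% of all genes. By mean level the groups held 17, 13, 21, 25 and 24 members. The median CV of the genes in these groups was nearly constant, between 19.2% and 20.6%, while the counting CV fell from 2.99% to 1.21%.

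**Figure D5:**
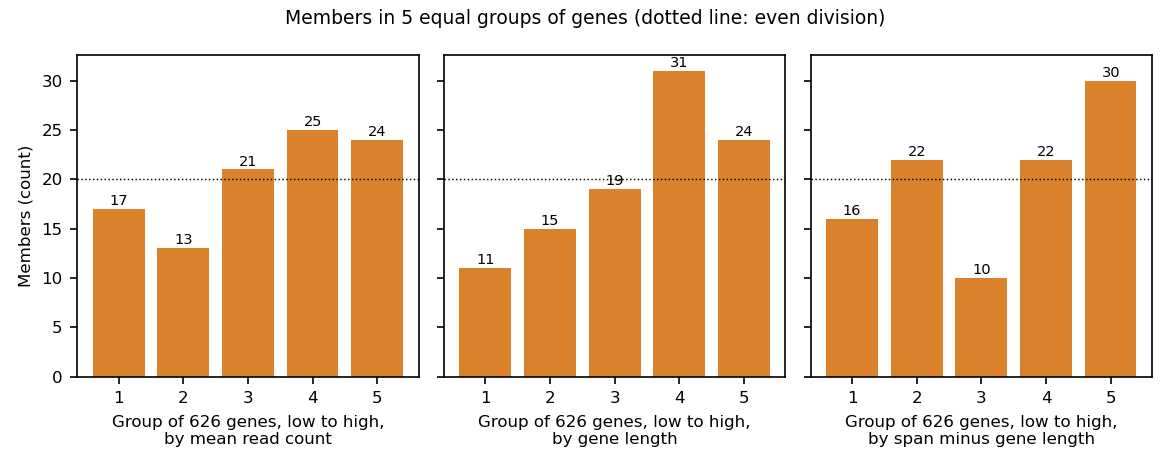
Number of members (vertical axis) in 5 groups of 626 genes, made by dividing the 3130 genes with a mean of at least 1000 by mean normalised read count, by gene length and by span minus gene length (horizontal axes, low to high). Members number 11 in the group with the shortest genes and 31 and 24 in the last groups, which hold the longest.

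The members were spread over 26 of 30 chromosomes, with at most 10 on any of them (chromosomes 1 and 5). Chromosomes 8, 18, 22 and 23 held none, although 339 of the 3130 genes lie there. The plus strand held 54 members. A neighbouring gene overlapped 17.0% of members and 14.9% of the other genes at this level; the authors' handling of strand is not stated, so overlapping genes may share reads. The gene on the 5′ side ran in the opposite direction in 66.0% of members and 62.9% of the others, and was under 500 bases away as well in 52.0% against 47.6%. No member lay directly beside another, and 5 pairs lay within 5 places of each other on a chromosome. The closest were NO26G00430 and NO26G00450, 4629 bases apart on chromosome 26.

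Among the genes beside members, the share with a low spread was near the background. Of the genes next to a member on either side, 61 had a mean of at least 1000, and 10 of them (16.4%) were among the 626 genes with the lowest CV, beside 17.4% of all genes at this level that were not members. Their median CV was 21.6%, against 20.1%.

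The members can be put to the use they were chosen for by expressing the disrupted gene relative to them. NO06G03670 stood at 51.4% of its WT level with the authors' scaling (944 ± 152 against 1837 ± 284 normalised reads, SD, n = 3) and at 47.9% with equal library totals. Divided by the geometric mean of all 100 members in each library it stood at 51.4%, and with the 6 steadiest at 50.9%. With NO05G05360 alone as the reference it stood at 52.2%. The factor that the 100 members give each library ran from 0.994 to 1.00 relative to the authors' scaling, which follows from their choice on values scaled that way, so these ratios do not test that scaling.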

How the data were processed

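RNA-seq libraries of 3 HLM23 and 3 WT samples, grouped by title, were analysed from the authors' deposited table of 1 row per gene. Tools listed in the submitters' processing notes, without versions, are fastp, HISAT2, featureCounts and DESeq2. How they were set, the treatment of strand and the genome build are not stated there. The 6 deposited columns of normalised reads hold a signal scaled by the authors per library: all values were whole multiples of 1 step per column within 0.001 of a read, which gave the reads behind each value and the counting CV. The authors' FPKM was used in 1 alternative, and the log2 fold changes and p-values of the authors' deposited comparison in another. A count model was not run, because an automatic check did not accept the columns of HLM23 replicate 3 and WT replicate 3 as whole reads, their steps being within 1% of 1.

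Strains were compared with limma (version 3.58.1, R 4.3.3), fitted to log2(value + 1) with a mean-variance trend, for the 9452 genes with a mean of at least 1 (100 left out), and Benjamini-Hochberg adjustment over all of them. Other values came from Python 3.11.15. Both steps were tested on simulated data, in which the steady genes varied almost only by counting and all other genes much more. No such gap was present among the measured genes. The simulation therefore does not show how well the rule separates genes near its cutoff. The members, the alternatives and the rule for named genes (the 6 steadiest, the 3 most abundant, those at the cutoff, the steadiest pair, the outermost in each direction, the shortest and the longest) were chosen with earlier results of these data known. The reading of 1 library left out and the settings that omit replicate 2 of each strain were additions made once the values were known. Patterns over gene descriptions for common reference genes could not be used without descriptions. A shared replicate number was not taken as a pairing.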

Additional observations from a re-analysis of the deposited data

How the results depend on the processing

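Of the 100 members, the rule kept 25 with equal library totals, 25 with the CV of the deposited FPKM, 42 with the median absolute deviation over the median, 54 with a floor of 2000 (all 54 members above it), 51 with the spread within strains, 13 with the WT alone and 24 with HLM23 alone. Leaving out 1 library kept 45 (HLM23 replicate 3) to 84 (HLM23 replicate 2), with 66 without WT replicate 1 and 66 without WT replicate 3. Without both replicate 2 libraries 73 were kept. The cause of these differences was not tested. The limma calls numbered 2730 over all genes, 1303 at an adjusted p of 0.01 and 1527 to 2655 with 1 library left out, where fewer samples remain. The lower counts were 1741 without HLM23 replicate 1, 1527 without WT replicate 1 and 1541 without WT replicate 3. No member was called in any of these fits or in the authors' table, and the lowest unadjusted p of a member was 0.12, with equal library totals. The replicate block gave 2635 calls and 0 members. The Spearman correlations over all genes of same-numbered libraries were 0.907, 0.977 and 0.930 for replicates 1, 2 and 3. Among pairs between the strains, replicate 1 gave the lowest value and replicate 2 the highest, which does not show a pairing by number. With 200 genes chosen in the WT, 132 lay under the HLM23 median (of 100 chosen, 64). With neighbours counted from a mean of 100, 36 of 167 were among the steadiest genes. Both settings change the number of genes counted. In the second, the share was 21.6% of neighbours beside 19.0% of genes that were not members. The direction of that small difference was the reverse of the main setting (16.4% beside 17.4%). The log2 fold changes of all 18 named members moved by more than the spread between replicates with equal library totals, and that of NO10G00640 also without both replicate 2 libraries (-0.039); under the other settings none moved by as much, and none was called under any. That of NO06G03670 ran from -1.07 to -0.83. Depth limits the ranking near the floor of 1000, where counting alone gives a CV of about 3%.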
